A study of Neurospora crassa with 20 samples.

Results

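The peaks described here are the H3K4me3 peaks of Neurospora crassa Δkmt1/Δdim-5 (Δdim-5 below), compared between cultures given 30 min of light (LP30) and cultures kept in the dark (DD). All peaks of both deposited Δdim-5 H3K4me3 lists on the 7 large supercontigs of the NC12 build, named here as chromosomes I to VII, were taken, and a peak counted as matched when it shared at least 1 bp with a peak of the other list. This gave 9626 peaks, 4819 in LP30 and 4807 in DD, of 18609 in the 4 H3K4me3 lists of the series. They came from 4 of the 20 ChIP-seq samples.

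The LP30 cultures were Δdim-5 mycelia grown in light, moved to the dark for 24 h and then given 30 min of light, with 2 biological replicates. The DD cultures were Δdim-5 mycelia of the same growth harvested after the 24 h of dark, also with 2 replicates, and WT LP30 and WT DD cultures were handled alike. The Δdim-5 strain was 1 backcrossed isolate in which the gene is missing in all cells. The control for the 4 H3K4me3 lists was the H3K4me3 ChIP of Δkmt2/Δset-1 (Δset-1 below) kept in the dark, so both lists of a light comparison were measured against a dark control. There was 1 list for the 2 replicates of a condition, and how the replicates were combined is not given in the sources used here. No spread between replicates and no test between LP30 and DD could therefore be had from the peaks, and the 95% intervals below (exact binomial for shares, order statistics for medians) cover counting error over peaks, which are not replicates. Mycelia hold many nuclei, so a peak carried by fewer nuclei and a peak with less mark in each nucleus cannot be told apart.

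H3K4me3, trimethylation of lysine 4 of histone H3, lies over the start of most transcribed genes and is laid down in Neurospora by SET-1, the catalytic subunit of the COMPASS complex. DIM-5 is the methyltransferase for lysine 9 of histone H3, and H3K9me3 marks the AT-rich heterochromatin of centromeres, telomeres and dispersed repeats, where it directs DNA methylation through HP1 and DIM-2. Light acts on this fungus through the White Collar complex, a blue-light receptor and transcription factor that turns on genes such as frq, vvd and the carotenoid genes within minutes. The comparison asks how the H3K4me3 map of cells without H3K9 methylation looked after a short light pulse, beside the map before it.

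The lists matched the label. The dim-5 gene (NCU04402) had no peak in either Δdim-5 list, whereas a peak lay on it in WT at a fold enrichment of 1.503 in LP30 and 1.614 in DD. Fold enrichment is the ChIP pileup over the control pileup at the summit, each with 1 added, as the authors' peak caller wrote it. The set-1 gene, which the control strain lacks, had a peak with a fold enrichment of 5.10 in Δdim-5 LP30 and 5.18 in Δdim-5 DD, and the control pileup there was 82.5 and 82.1, against medians of 240 in LP30 and 243 in DD. The fold enrichment at that gene is therefore not a level of the mark.

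The H3K4me3 maps of LP30 and DD were nearly the same set of places. In LP30, 4536 peaks had a counterpart in DD and 283 (5.87%) had none. In DD, 4593 peaks had a counterpart in LP30 and 214 (4.45%) had none. In WT, 178 LP30 peaks (3.92%) and 134 DD peaks (3.01%) were unmatched. The LP30 peaks covered 7091 kb and the DD peaks 6924 kb, of which 6669 kb lay in both. The bases in LP30 alone came to 422 kb and those in DD alone to 255 kb, and most lay at the edges of matched peaks, 332 kb in LP30 and 187 kb in DD. In WT the order was the other way, with 190 kb in LP30 alone and 289 kb in DD alone. Both light comparisons share the Δset-1 control, and the difference between them was not tested.

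Peaks without a counterpart were small. Their median width was 277 bp for the LP30-only peaks and 284.5 bp for the DD-only peaks, against medians of 1488 bp in LP30 and 1443 bp in DD for matched peaks. Among peaks from 200 to under 300 bp, 170 of 310 LP30 peaks (54.8%, 49.1 to 60.5%) and 120 of 305 DD peaks (39.3%, 33.8 to 45.1%) were unmatched. The share fell with width in both lists. From 500 to under 750 bp it was 8.81% in LP30 and 4.71% in DD, and from 750 to under 1000 bp 2 of 375 LP30 peaks and 0 of 385 DD peaks had no counterpart. None of the 3560 LP30 peaks and none of the 3498 DD peaks of 1000 bp or more was unmatched. A DD list without a single unmatched peak among 2521 from 1000 to under 2000 bp allows a share of up to 0.146% (exact interval).

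The unmatched peaks were also weak. Their median fold enrichment was 1.17 in LP30 only and 1.19 in DD only, against 1.62 for matched LP30 peaks and 1.60 for matched DD peaks. A q under 0.01 was reached by 94 of the 283 LP30-only peaks and by 69 of the 214 DD-only peaks, whereas 94.3% of the matched LP30 peaks and 92.9% of the matched DD peaks reached it. The peaks nearest to the matching rule were an LP30-only peak 20 bp and a DD-only peak 23 bp from a peak of the other list, and the least overlap of a matched pair was 10 bp. A peak of the other list lay within 500 bp of 109 LP30-only peaks and of 61 DD-only peaks. At 214 of the 283 LP30-only and 159 of the 214 DD-only peaks, WT had no H3K4me3 peak in either condition. The share for matched peaks of like width is not given here.

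**Figure D1:**
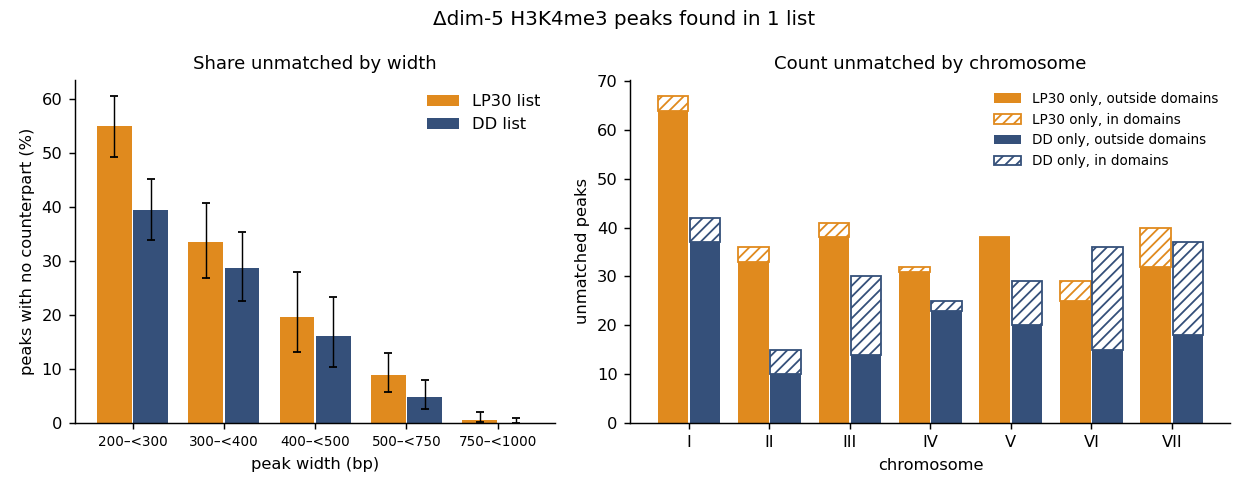
Left, share of Δdim-5 H3K4me3 peaks with no counterpart in the other list (vertical axis, percent) by peak width in bp, for the LP30 list (orange) and the DD list (blue), with exact binomial 95% intervals as bars. Right, number of unmatched peaks per chromosome, with hatched parts for summits inside WT DD H3K9me3 peaks of 10 kb or more. The share drops with width in both lists, and the DD-only bars hold more hatched peaks, 77 in all, than the LP30-only bars, 22 in all.

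The peaks found in 1 list lay in different kinds of chromatin. Of the LP30-only peaks, 227 (80.2%, 75.1 to 84.7%) had the summit inside an annotated gene, against 94 of the DD-only peaks (43.9%, 37.2 to 50.9%). Matched summits lay in genes in 96.5% of LP30 and 96.4% of DD peaks. WT DD H3K9me3 peaks of 10 kb or more, 173 domains with 5986 kb together, were used as a map of the heterochromatin that Δdim-5 lacks. In these domains lay 22 LP30-only peaks (7.77%, 4.94 to 11.5%) and 77 DD-only peaks (36.0%, 29.6 to 42.8%). The shares were 1.70% of all LP30 and 2.81% of all DD peaks, and 1.32% of matched LP30 and 1.26% of matched DD peaks. Few unmatched peaks of either list there had the summit in an annotated gene, 2 of the 22 LP30-only and none of the 77 DD-only peaks. Outside the domains, 261 peaks were LP30-only and 137 were DD-only, of which 86.2% of LP30-only and 68.6% of DD-only peaks had the summit in a gene. WT had 22 LP30-only peaks and no DD-only peak in the domains. The gene shares in WT ran the other way, with the summit in a gene for 66.3% of LP30-only and 87.3% of DD-only peaks.

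Unmatched peaks were found on all 7 chromosomes in both lists. The LP30-only share ran from 4.64% on chromosome IV (32 peaks) to 8.75% on chromosome VII (40 peaks). The DD-only share ran from 2.85% on chromosome II (15 peaks) to 8.03% on chromosome VII (37 peaks), with 7.74% on chromosome VI (36 peaks). Chromosome VI was the single chromosome with more unmatched peaks in DD than in LP30, and it held 29 LP30-only peaks. Long H3K9me3 domains took 21 of the 36 DD-only peaks of chromosome VI, 19 of 37 on VII and 16 of 30 on III. They took 8 of 40 LP30-only peaks on chromosome VII, 4 of 29 on VI and none of 38 on V.

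The longest H3K9me3 domain of each chromosome, 214 to 348 kb in WT DD, was one of these long domains, so its peaks are part of the counts above. Together the 7 domains held 50 Δdim-5 peaks in LP30, 13 of them unmatched, and 89 in DD, 54 of them unmatched. These were 13 of the 22 LP30-only and 54 of the 77 DD-only peaks of all long domains. On chromosome VII (2134736 to 2483087) there were 21 peaks in LP30 and 30 in DD. On chromosome VI (2783068 to 3029036) there were 20 in LP30 and 30 in DD. The gap was wider on chromosome III, with 3 peaks in LP30 and 14 in DD, and on chromosome V, with 3 in LP30 and 11 in DD. The domain of chromosome II had 3 in each list, that of IV had 0 in LP30 and 1 in DD, and that of I had none. WT had 4 peaks in these domains in LP30 and 1 in DD.

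**Figure D2:**
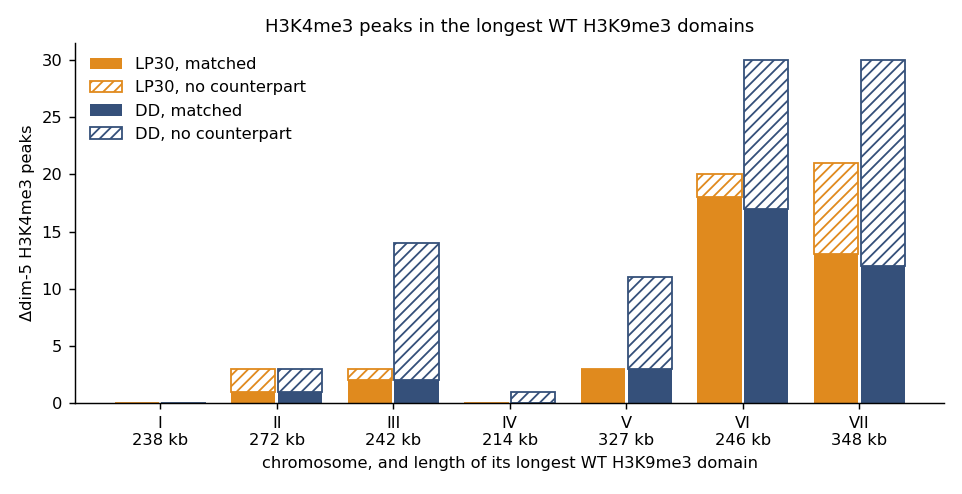
Number of Δdim-5 H3K4me3 peaks (vertical axis) whose summit lay in the longest WT DD H3K9me3 domain of each chromosome (horizontal axis, with the domain's length), for LP30 (orange) and DD (blue). Filled parts are peaks matched in the other list and hatched parts are peaks without a counterpart. Chromosomes III, V, VI and VII had more peaks, and more peaks without a counterpart, in DD than in LP30.

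Over all long domains there were 82 peaks in LP30 and 135 in DD. They were small and weak in both lists, with median widths of 302 bp in LP30 and 308 bp in DD and median fold enrichments of 1.24 in LP30 and 1.25 in DD, and they covered 0.550% of the domain bases in LP30 and 0.879% in DD. With a q under 0.01 asked of both lists the counts were 44 in LP30 and 76 in DD. The ChIP pileup at their summits was 211 in LP30 and 214 in DD (medians), over a control pileup of 169 in both. The 55 one-to-one pairs in the domains lay close together, at a median distance of 42 bp between summits, and had a median width change of -1 bp (-29 to 17). Thus the peaks that both lists held in the domains were alike in size, and the lists differed in how many further weak peaks they had. The lists give no read totals, but the peak caller scales the control to the reads kept from each ChIP, and at shared summits the control pileup of LP30 was 0.970 of that of DD in Δdim-5 and 1.06 of it in WT (medians, with summits at most 10 bp apart). In the domains, the list with the higher control pileup had more peaks in both strains. This was DD in Δdim-5 and LP30 in WT, where the counts were 32 in LP30 and 10 in DD. Outside the domains the order of the unmatched Δdim-5 peaks was the other way, with 261 LP30-only and 137 DD-only. The part of this scale in the counts was not tested.

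Among the unmatched peaks, those with the highest fold enrichment were picked out by a fixed rule. The strongest of LP30 lay in NCU09968 on chromosome VI (313374 to 313650), a locus inside a WT H3K9me3 peak of 12218 bp, and its fold enrichment was 2.95, from a ChIP pileup of 35 over a control pileup of 11.2. A further LP30-only peak in NCU09968 (312412 to 312666) had 1.93, from 49 over 24.9. In all, NCU09968 carried 5 Δdim-5 peaks in LP30 and 3 in DD, where WT had 1 wide peak of 8457 bp in LP30 and 8473 bp in DD with fold enrichments of 89.7 in LP30 and 96.9 in DD. The peak that stood highest in Δdim-5, shared with the neighbouring sly-1 (NCU09969), reached 7.85 in LP30 (314807 to 315495) and 8.38 in DD (314804 to 315443), over control pileups of 3.20 in LP30 and 3.78 in DD. Fold enrichment at this locus thus rested on low control pileups, and the LP30-only calls there rested on ChIP pileups far under the median of 406 over all LP30 peaks.

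The other LP30-only peaks of the rule were weaker. One on chromosome VI (3029662 to 3030222), outside any gene by 46669 bp from NCU15396, had 1.44, one in NCU07848 (chromosome III, 1088156 to 1088450) had 1.42, and one 1749 bp from os-1 (NCU02815), which encodes the histidine kinase of osmosensing, had 1.38. WT had no peak at any of these 3 places. The widest LP30-only peaks lay in gua-3 (NCU02325), with 873 bp at a fold enrichment of 1.15, in NCU07112, with 787 bp at 1.16, and in NCU00148, with 708 bp at 1.19. None of these 3 wide peaks passed a q of 0.01.

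Of the 5 strongest DD-only peaks, 3 lay in the longest domain of chromosome VII, nearest to NCU15310 but 38207 to 59897 bp from it. Their fold enrichments were 1.44 (2254050 to 2254337), 1.43 (2262709 to 2263005) and 1.41 (2275834 to 2276055). The other two were 2659 bp from NCU16786 on chromosome IV (1.42) and in NCU05784 on chromosome VII (1.41). The widest DD-only peaks had 692 bp (near NCU15396), 668 bp (near NCU15310) and 635 bp (in NCU06305), and those near NCU15396 and NCU15310 lay inside WT H3K9me3 peaks.

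Most matched peaks paired one to one. The 2 lists shared 4661 overlapping pairs, which fell into 4468 groups of touching peaks, and 4286 groups held 1 peak of each list. In 115 groups, 1 LP30 peak spanned several DD peaks (231 in all), and in 58 groups several LP30 peaks (116) lay on 1 DD peak, so joined peaks were more often on the LP30 side. In WT the groups ran the other way, 34 with 1 LP30 peak over several DD peaks and 80 with several LP30 peaks on 1 DD peak. The one-to-one pairs were used for summits, widths and fold enrichments.

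Summits lay close together. The median distance between the LP30 and DD summits of a pair was 88.5 bp (84 to 92), 54.0% were within 100 bp and 95.6% within 500 bp, and 18 pairs had the same base. The signed median, LP30 minus DD, was -2.5 bp, so there was no common direction along the chromosome. Wider peaks had more distant summits: the median distance was 62 bp for pairs with a mean width under 500 bp, 64 bp from 500 to under 1000 bp, 89 bp from 1000 to under 2000 bp and 129 bp at 2000 bp or more. By chromosome it lay between 81 bp on II and 106 bp on VII. In WT the median distance was 63 bp (60 to 67), with 49 bp in the narrowest class and 99.5 bp in the widest.

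Distances over 500 bp were seen in 188 pairs and over 1000 bp in 28. The largest with a q under 0.01 in both lists was at NCU06266 on chromosome III, where the LP30 summit lay 2287 bp to the right of the DD summit within peaks of 3843 bp in LP30 and 3814 bp in DD. The ChIP pileups at these 2 summits were 429 in LP30 and 427 in DD. At scon-3 (NCU08991), which encodes a Skp1-type subunit of the sulfur regulatory ubiquitin ligase, the summit lay 2170 bp to the left in LP30, with pileups of 429 in LP30 and 426 in DD. At NCU04373 it lay 2046 bp to the right in LP30, with 366 in LP30 and 372 in DD. In these 3 wide peaks the highest point changed place between summits of nearly equal ChIP pileup. At NCU04373 the control pileups at the 2 places were 186 in LP30 and 292 in DD, and the fold enrichment was 1.96 in LP30 and 1.27 in DD.

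Peaks were slightly wider in LP30. Of the 4286 pairs, 2563 (59.8%, 58.3 to 61.3%) were wider in LP30, 1701 were narrower and 22 were equal. The median change, LP30 minus DD, was 18 bp (15 to 20), with quartiles of -31 and 79 bp, on median widths of 1498 bp in LP30 and 1472 bp in DD, and both edges moved outward, by 7 bp on the left and 6 bp on the right (medians). The summed width of the pairs was 135 kb larger in LP30. The median was above 0 on all 7 chromosomes, between 10 bp on V and 29 bp on II. By mean width of the pair it was 3 bp (-6 to 20) under 500 bp, 21 bp from 500 to under 1000 bp, 17 bp from 1000 to under 2000 bp and 19.5 bp at 2000 bp or more. In WT the median change was -18 bp (-20 to -16), with 36% of pairs wider in LP30.

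Large changes of width were few. An LP30 peak was wider by 500 bp or more in 25 pairs and narrower by that much in 2. The largest gain with a q under 0.01 in both lists was at NCU07523 on chromosome III, with 1285 bp in LP30 against 367 bp in DD, though the summits were 21 bp apart with ChIP pileups of 324 in LP30 and 321 in DD. NCU06986 had 3030 bp in LP30 against 2170 bp in DD, and NCU03877 had 3304 bp in LP30 against 2464 bp in DD. These peaks gained at their flanks while their summits stayed within 146 bp of each other. The largest losses under the same q limit were at NCU08303, with 650 bp in LP30 against 1115 bp in DD, at NCU06628, with 1162 bp against 1597 bp in DD, and at mus-27 (NCU08484), with 1452 bp in LP30 against 1872 bp in DD.

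**Figure D3:**
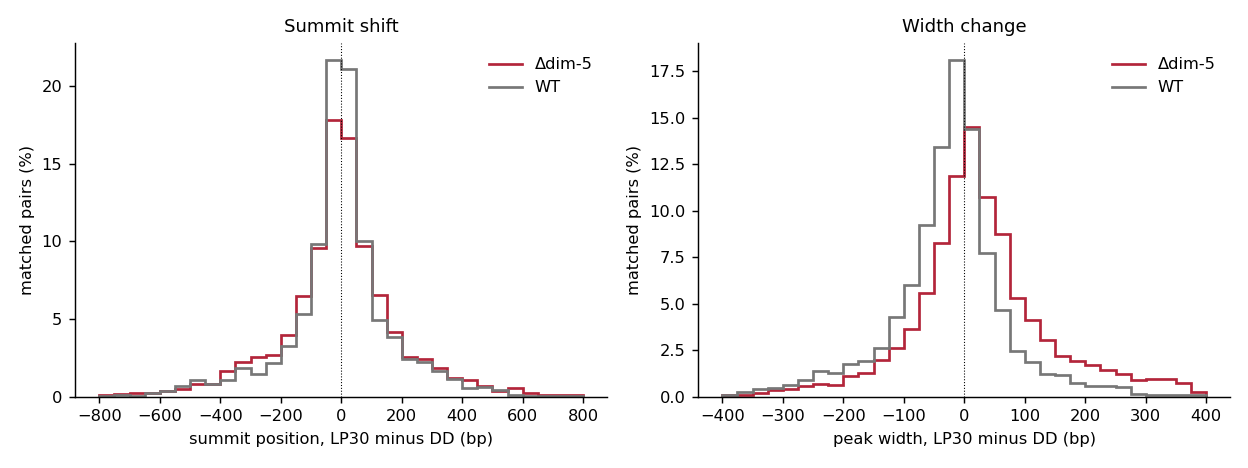
Percent of matched one-to-one H3K4me3 pairs (vertical axes) by summit shift in bins of 50 bp (left) and by width change in bins of 25 bp (right), both LP30 minus DD in bp, for Δdim-5 (red, 4286 pairs) and WT (grey, 4162 pairs). Pairs beyond the axis limits are not drawn, 47 (shift) and 74 (width) in Δdim-5 and 25 of each in WT. Shifts centre on 0 in both strains, whereas the width change has its median at 18 bp in Δdim-5 and at -18 bp in WT.

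Fold enrichment was also slightly higher in LP30. Its median over the pairs was 1.62 in LP30 and 1.61 in DD. The median log2 ratio of LP30 over DD was 0.030 (0.027 to 0.032), and 2753 of 4286 pairs (64.2%, 62.8 to 65.7%) were higher in LP30. In WT the median log2 ratio was -0.071 (-0.073 to -0.068), with 21.9% of pairs higher in LP30. The ChIP and control pileups behind these values could be solved from the fold enrichment and the p-value of a peak for 4691 LP30 and 4675 DD peaks of Δdim-5. Among 399 pairs with summits at most 10 bp apart, where both lists see the same control DNA, the control pileup of LP30 was 0.970 of that of DD (median), the ChIP pileup 0.997 and the fold enrichment 1.03. In the 516 such pairs of WT, the control ratio was 1.06, the ChIP ratio 1.01 and the fold enrichment ratio 0.950. In both strains the fold enrichment ratio lay on the other side of 1 from the control ratio. On unscaled ChIP pileups the Δdim-5 median log2 ratio of LP30 over DD was -0.0073 with 38.4% of pairs higher in LP30, and on pileups brought to one control scale it was 0.036 with 87.3% higher, so the direction depended on the scale. The part of the control scale in the changes of fold enrichment and width was not tested.

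**Figure D4:**
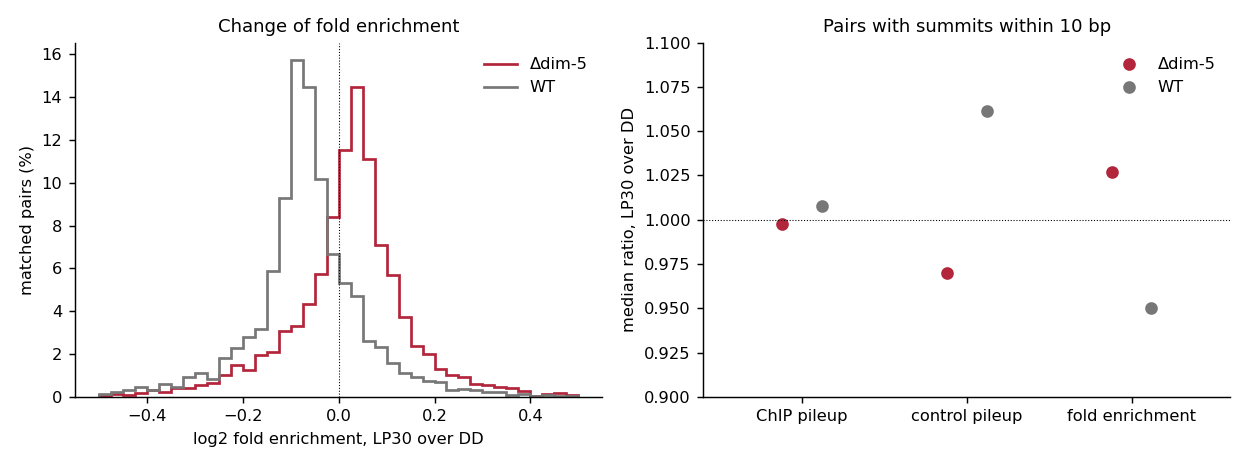
Left, percent of matched pairs (vertical axis) by log2 ratio of fold enrichment, LP30 over DD, in bins of 0.025, for Δdim-5 (red) and WT (grey). Right, median ratio of LP30 over DD for ChIP pileup, control pileup and fold enrichment in pairs with summits at most 10 bp apart (399 in Δdim-5, 516 in WT). The ChIP ratio is near 1 in both strains (0.997 and 1.01), and the fold enrichment ratio lies on the other side of 1 from the control ratio.

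Strong peaks also had little room to change. No solved ChIP pileup in either list was above 2 times the smallest peak width of its list (436 in LP30, 444 in DD). The peak caller keeps by default a single read per position and strand and reports no peak shorter than a fragment, so 2 fragment lengths are the most a pileup can hold. The summits compared for the ratios above were near it, with median ChIP pileups of 407 in LP30 and 408 in DD. The median pileup was 93.1% of that ceiling in LP30 and 91.7% in DD, and 62.5% of LP30 and 58.5% of DD peaks were at 90% of it or more. None of the unmatched peaks was, with a highest pileup of 353 in LP30 only and 350 in DD only. A further rise of the pileup at such summits was therefore not detectable from these lists.

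Few pairs changed much. A fold enrichment at least 1.2-fold higher in LP30 was found in 147 pairs (3.43%) and one at least 1.2-fold lower in 119 (2.78%). In WT the shares were 1.25% higher and 5.43% lower. Of the 2313 Δdim-5 pairs with summits within 100 bp, 7 were higher and 1 was lower by that measure. Of the 4179 pairs solved in both lists, 140 were higher and 116 lower, but the ChIP pileup, brought to one control scale, was 1.2-fold higher in 3 pairs, 1 of them among the 140, and lower in none. Most of these pairs, 105 of the 140 and 87 of the 116, were at 90% of the pileup ceiling or more, as were 2773 of all 4179 solved pairs. At that level ChIP pileups could differ little. In pairs under 50% of the ceiling (64 pairs) the median log2 ratio of fold enrichment was -0.0047 and the median width change was -6 bp. From 50 to 70% (266 pairs) they were 0.018 and 22 bp, from 70 to 90% (1076 pairs) 0.031 and 25 bp, and at 90% or more (2773 pairs) 0.030 and 16 bp. The small excess of LP30 was thus found in all but the lowest of these classes.

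The pair with the highest log2 ratio among those with summits within 100 bp was pro-3 (NCU01412), named for its proline requirement, with a fold enrichment of 1.51 in LP30 and 1.21 in DD at the same base. Its ChIP pileup was 319 in LP30 and 261 in DD over control pileups of 210 in LP30 and 215 in DD, and its peak was 754 bp wide in LP30 and 332 bp in DD. WT had 1.198 in LP30 and 1.146 in DD there. Of all solved pairs, this one had the highest ratio of ChIP pileups, and it was below the ceiling in both lists. At mrc1 (NCU04321), the counterpart of a replication checkpoint gene of yeast, the fold enrichment was 1.82 in LP30 and 1.47 in DD, but the ChIP pileup was 413 in LP30 and 407 in DD and the control pileup 227 in LP30 and 276 in DD. NCU01458 was alike, with ChIP pileups of 413 in LP30 and 409 in DD over control pileups of 260 in LP30 and 311 in DD.

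At the low end stood gh76-6 (NCU02216), a predicted glycoside hydrolase, with a fold enrichment of 1.11 in LP30 and 1.35 in DD. NCU16320 had 1.25 in LP30 and 1.44 in DD, and its summit, 649 bp from the gene, had the lowest ratio of ChIP pileups of all solved pairs, 204 in LP30 against 251 in DD. At NCU02716 the ChIP pileups were 388 in LP30 and 395 in DD, with control pileups of 261 in LP30 and 225 in DD. At NCU14079, 1615 bp from the summit, they were 404 in LP30 and 416 in DD, with control pileups of 187 in LP30 and 165 in DD. The low ratios at NCU02716 and NCU14079 thus came with a higher control pileup at the LP30 summit.

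The same light and clock genes had an H3K4me3 peak in both lists. Of 27 such genes, chosen by known role, 16 had an overlapping peak in LP30 and the same 16 in DD, while over all 10397 annotated genes 142 (1.37%) had a peak in LP30 only and 78 (0.75%) in DD only (in WT, 0.866% in LP30 only and 0.837% in DD only). In WT, 16 of the 27 had a peak in LP30 and 14 in DD. Taking the highest peak on each gene in each list, 12 of the 16 had a higher fold enrichment in LP30 and 4 a lower one. The median log2 ratio was 0.077. Over all one-to-one pairs, 64.2% were higher and the median was 0.030. The 2 measures are unlike, because the highest peaks of a gene in the lists need not be a one-to-one pair. They were not one at csp-1, where the highest DD peak was DD-only, or at al-2. Of 12 genes with a peak in both WT lists, 2 were higher in LP30 and 10 lower, with a median of -0.10.

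Of the genes for light receptors, wc-1 (NCU02356) had a fold enrichment of 1.47 in LP30 and 1.42 in DD and wc-2 (NCU00902) had 1.78 in LP30 and 1.56 in DD, these being the 2 subunits of the White Collar complex. At wc-2 the ChIP pileup was 401 in LP30 and 395 in DD over control pileups of 225 in LP30 and 253 in DD, at summits in different places. The small flavin photoreceptor gene vvd (NCU03967), which is strongly induced by light and damps the response, had 1 weak peak in each list, with 1.15 over 825 bp in LP30 and 1.16 over 786 bp in DD. WT had a vvd peak in LP30 (1.202) and none in DD. The cryptochrome gene cry (NCU00582) had 1.13 in LP30 and 1.15 in DD, and no peak in WT. The phytochrome genes phy-1 and phy-2 and the opsin gene nop-1 had no peak in either Δdim-5 list.

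All 4 clock genes had a higher fold enrichment in LP30, as did 64.2% of all pairs, and frq also had another number of peaks. The clock gene frq (NCU02265), whose product closes the negative loop, carried 3 peaks in LP30 and 2 in DD. The LP30-only one (chromosome VII, 3133135 to 3133543) had a fold enrichment of 1.14 and did not reach a q under 0.01. The main one had 1.34 over 706 bp in LP30 and 1.19 over 784 bp in DD. Its ChIP pileup was 323 at the LP30 summit (3135366) and 324 at the DD summit (3135697). The control pileups, at these different places, were 241 in LP30 and 272 in DD. WT had 1 frq peak in LP30 (1.21) and none in DD. A transcript antisense to frq is known, and these peaks carry no strand. The helicase gene frh had 1.73 in LP30 and 1.64 in DD, fwd-1, for the F-box protein of FRQ turnover, 1.62 in LP30 and 1.59 in DD, and ck-1a, for casein kinase, 1.52 in LP30 and 1.46 in DD. At frh the ChIP pileup was 424 in LP30 and 435 in DD over control pileups of 245 in LP30 and 264 in DD. At fwd-1 it was 418 in LP30 and 420 in DD, over 257 in LP30 and 264 in DD. At ck-1a it was 417 in LP30 and 420 in DD, over 275 in LP30 and 287 in DD. At all 4 genes the ChIP and control pileups were thus both lower at the LP30 summit than at the DD summit, but these summits were at different positions.

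Among light-regulated transcription factors, sub-1 had 1.57 in LP30 and 1.48 in DD, and adv-1 had 2.04 in LP30 and 2.10 in DD. At csp-1 (NCU02713), a light-induced repressor, LP30 had 1 peak of 584 bp (1.30) and DD had 3 peaks of 238, 272 and 314 bp (1.17, 1.23 and 1.19), of which 2 were DD-only. The fl gene had no peak. Of the carotenoid genes, al-3, for geranylgeranyl diphosphate synthase, had 1.35 in LP30 and 1.25 in DD and ylo-1, for a late aldehyde dehydrogenase, had 1.65 in LP30 and 1.66 in DD. At al-2, for phytoene synthase, 2 peaks in LP30 (1.23 and 1.33) lay on 1 DD peak of 1012 bp (1.23). Neither al-1 nor cao-2 had a Δdim-5 peak, while WT had an al-1 peak in LP30 (1.24) and none in DD. Of other light-induced genes, the peak that overlaps the photolyase gene phr had 1.78 in LP30 and 1.68 in DD, but at summits 1287 bp (LP30) and 1260 bp (DD) outside the gene, and bli-3 had 1.36 in LP30 and 1.27 in DD, and con-6, con-10, bli-4, ccg-1 and eas had none. As in the pairs as a whole, these small differences have no replicate spread to set them against.

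**Figure D5:**
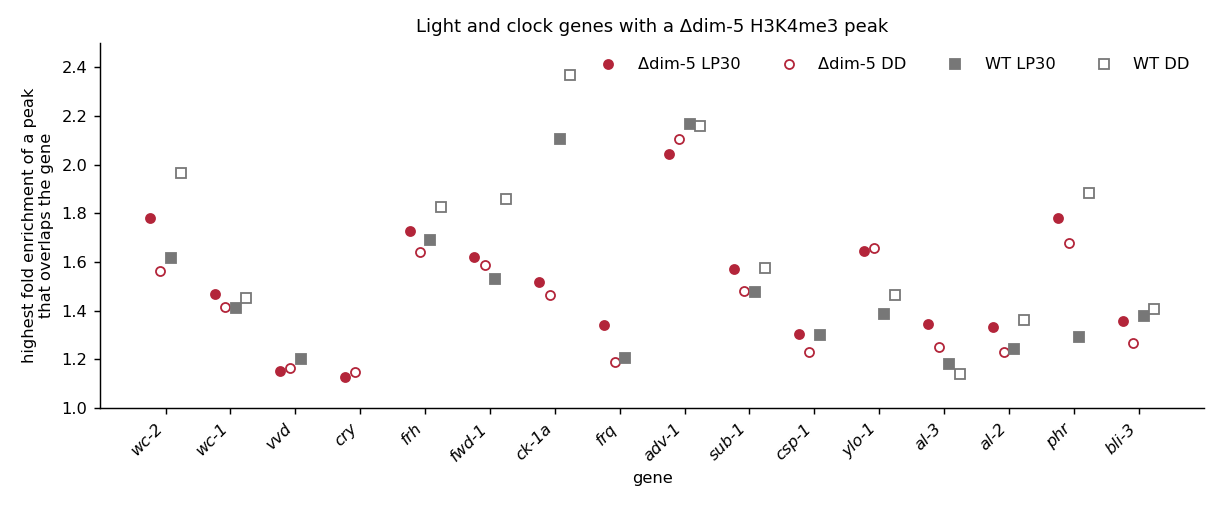
Highest fold enrichment (vertical axis, from 1) of an H3K4me3 peak overlapping each of the 16 light and clock genes with a Δdim-5 peak, for Δdim-5 LP30 (filled red), Δdim-5 DD (open red), WT LP30 (filled grey) and WT DD (open grey). A missing mark means no overlapping peak. In Δdim-5, 12 of the 16 genes are higher in LP30 and 4 are lower, with the widest gap at wc-2 (1.78 in LP30, 1.56 in DD). The Δdim-5 summits lie in the gene for 15 of the 16, the exception being phr.

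Of 6 genes of the heterochromatin machinery, 4 had a peak in both lists, 3 of them higher and 1 lower in LP30, with a median log2 ratio of 0.023. The HP1 gene hpo had 1.73 in LP30 and 1.69 in DD, dim-7 had 2.00 in LP30 and 1.91 in DD, dim-9 had 1.31 in LP30 and 1.29 in DD and cul4 had 1.64 in LP30 and 1.67 in DD, the last 3 being parts of the complex that brings DIM-5 to its targets. The DNA methyltransferase gene dim-2 had no peak in either Δdim-5 list or in WT. Of the 5 reference genes, act, gpd-1, hH3 and hH4-1 were higher in LP30, by log2 ratios of 0.019 (gpd-1) to 0.092 (hH3). The β-tubulin gene bml (NCU04054) was lower, with 1.57 in LP30 and 2.05 in DD, where the summit had moved within the peak and the control pileup was 267 in LP30 and 206 in DD.

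A last list held 8 loci that the study names for H3K4me3 or H3K9me3. It was chosen on these samples, so it is no independent evidence. Of them, 6 had a Δdim-5 peak in LP30 and 5 in DD, and of the 5 with both, 1 was higher in LP30 (NCU10058, 1.33 in LP30 and 1.30 in DD) and 4 lower, with a median log2 ratio of -0.093. The lower ones were NCU09968 and sly-1, which share their highest peak, NCU16377 with 1.21 in LP30 and 1.295 in DD, and NCU16472. NCU02913 had no Δdim-5 peak. NCU16472 had a peak in Δdim-5 (1.28 over 610 bp in LP30, 1.36 over 780 bp in DD) and none in WT. NCU10059 had an LP30-only peak of 310 bp (1.17) in Δdim-5, while WT had 1.43 in LP30 and 1.47 in DD. NCU16528, in the long domain of chromosome II, had no peak in Δdim-5 and 3.92 in LP30 and 4.23 in DD in WT. At NCU16472 and NCU16528 the 2 Δdim-5 lists thus gave the same picture of presence or absence, and at NCU10059 they did not.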

How the data were processed

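Mycelia were crosslinked and immunoprecipitated with Abcam antibodies, and single-end reads were sequenced to a stated depth of 50 M reads of 50 bp per sample. Read totals are not in the peak lists, so the depth reached is unknown. The authors mapped the reads to NC12 with BWA and called H3K4me3 peaks with macs2 at a p cutoff of 0.1 over the Δset-1 ChIP. They deposited 1 list per condition, and how the 2 replicates entered it is not given in the sources used here. The macs2 version is not given in the sources used here. The deposited lists give position, summit offset, the fold enrichment (a ratio over control), the −log10 p-value and the −log10 q-value, the last 2 at the summit for H3K4me3. The WT H3K9me3 lists deposited by the authors hold broad peaks, called over the Δdim-5 ChIP, of which only positions were used. The Δset-1 H3K9me3 lists were not used here.

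Peaks were matched by 1 bp, and unmatched peaks, bases, summits, widths and fold enrichments were described by supercontig and width with Python 3.11.15, numpy 2.4.6, pandas 2.3.3, scipy 1.17.1 and matplotlib 3.10.9. ChIP and control pileups were solved from fold enrichment (with 1 added to each) and the Poisson p-value. The matching step alone was tested, on a copy of 3171 well-separated peaks of the Δdim-5 DD list. All planted losses, gains, summit shifts and width changes were recovered. Gene spans came from RefSeq for NC12, which gave 10397 genes here and no strand, so distances to start sites were not computed and peaks cannot be assigned to one of overlapping genes. Named peaks were the 5 strongest and 3 widest unmatched ones of each list, the 3 largest shifts, gains and losses of width, the 5 highest and lowest ratios (from which examples are given), and the genes of a fixed list of 47. Members and lists were chosen with earlier results of these data known. Alternatives were a q under 0.01, a fold enrichment of at least 1.5, a cover of at least 50%, reach of 500 bp, all contigs, all overlapping pairs, summits within 100 bp, and domains of 5 kb, 20 kb or of WT LP30.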

Additional observations from a re-analysis of the deposited data

How the results depend on the processing

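With 1 list per condition there was no test and no replicate could be left out. No paired analysis was possible because the lists hold no values of single replicates. Of 53 alternatives, 36 stayed within 1.5 times the count, or within the interval of the median or share, and the direction turned in 2, both on unscaled ChIP pileups. With q under 0.01 asked of the list that holds the peak, 94 LP30-only and 69 DD-only peaks remained. With a reach of 500 bp, 174 LP30 peaks were unmatched. Asking 1.5-fold enrichment of each list gave 840 kb in LP30 only and 401 kb in DD only. Over every overlapping pair the median summit distance was 94 bp. With summits within 100 bp, the median log2 fold enrichment was 0.034 and 72.7% of pairs were higher in LP30. With q under 0.01, the long domains held 44 LP30 and 76 DD peaks, 11 LP30-only and 42 DD-only. Settings chosen after seeing the data were summits outside the long domains, with 137 DD-only peaks, and ChIP pileups in place of fold enrichment. Unscaled, these gave a median log2 ratio of -0.0073 and 38.4% of pairs higher in LP30, and brought to one control scale they gave 0.036 and 87.3%. These 2 settings differ by construction by the control ratio, 0.970. Why they differ from fold enrichment was not tested. Read totals are unknown, and pileups near the ceiling can show little further rise.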

Other observations

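Outside the 7 chromosomes, 3 Δdim-5 peaks in LP30 and 8 in DD lay on smaller contigs of NC12. Across the 4286 pairs, widths in LP30 and DD had a Spearman correlation of 0.979 and fold enrichments one of 0.811. These are across peaks of 2 lists with a shared control, and peaks are not independent replicates.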
